A study of Mus musculus with 2 samples.

Results

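The forkhead (Fox) and Sox genes encode transcription factors, and their transcripts were followed here in embryonic mouse ureters with and without a conditional deletion of Gata6. The genes were taken by name from the non-control probes of the arrays, and Foxa1, Foxd3, Sox9 and Sox10 were left out. This gave 61 of the 29875 gene names on the array, 44 of them Fox and 17 Sox. They were covered by 88 probes, and 2 of the Fox entries, Foxd2os and Foxl2os, are transcripts from the opposite strand beside Foxd2 and Foxl2.

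Fox proteins bind DNA through a winged helix domain, and Sox proteins bend DNA through a high mobility group box. Members of both families act as switches of cell identity. In organs with a smooth muscle coat, the FoxF and FoxL1 factors are known as mesenchymal targets of Hedgehog signals from the epithelium, Foxd1 marks the stroma of the developing kidney, and FoxC genes act in the mesenchyme of the urinary tract. SoxC genes are active in many immature cells, neurons among them, and SoxF genes are known for their part in endothelium.

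Ureters were dissected from NMRI embryos at E14.5. Gata6cKO embryos had the genotype Tbx18(cre/+);Gata6(fl/fl), so that Tbx18, which is active in ureteric mesenchyme, drives the recombinase and Gata6 would be lost only from cells that have expressed Tbx18. Control embryos were Gata6(fl/?), with the other Gata6 allele not given, so both groups carried a floxed allele. The controls' labels name no Tbx18 cre allele, and effects of Gata6 loss, of the recombinase and of the altered Tbx18 copy cannot be told apart. The study measured 4 RNA samples on 2 two-colour arrays. The first array held a Gata6cKO and a control RNA of male embryos, the second the same pair from female embryos with the dyes exchanged, so that sex, dye orientation and array cannot be told apart. The labels do not say how many embryos gave an RNA. The p-values rest mostly on a spread shared over all genes, and little on a gene's own spread. That spread is only the one between these 2 arrays, which also differ in sex and dye, and it may be technical. In whole ureters, fewer cells of a type and less RNA per cell cannot be told apart.

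Across 19801 tested genes, 465 fell and 436 rose in the RNAs labelled Gata6cKO (limma, adjusted p under 0.05). In each dye of each array, well-above-background spots made up 67.2% to 68.5%, and 0 spots were saturated. The Gata6 probe read higher in the RNAs labelled Gata6cKO, with a log2 ratio of 0.65 ± 0.12 (moderated SE, n = 2; limma adjusted p = 0.00612). The ratio was 0.85 on the male array and 0.46 on the female. The labels do not give the deleted stretch of Gata6 and the probe's place relative to it was not determined, so this probe is no check of the labels. Every direction below follows the labels. Markers of the labelled tissue were measured: 24 of 24 urothelial and 16 of 18 smooth muscle markers were well above background.

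Of the 61 Fox and Sox genes, 45 had a probe well above background in at least 1 genotype on both arrays and were tested, 33 of them Fox and 12 Sox. Foxj1 fell and Foxa2 rose, and 43 did not pass. These 2 of 45 genes are 4.44%, beside 4.55% of all genes tested. In the direction of a fall it was 1 of 45, beside 2.35% of all genes, and in the direction of a rise 1 of 45, beside 2.2%. Foxa2 passed the filter only through the genotype in which it was high. With a probe well above background in both genotypes, 1 of 39 Fox and Sox genes passed (2.56%), beside 4.3% of all genes under that filter. The Fox calls were 2 of 33 (6.06%) and the Sox calls 0 of 12. With limma, an unadjusted p under 0.05 was found for 7 of the 45 genes (15.6%), beside 11.4% of all genes. These were 7 of 33 Fox (21.2%) and 0 of 12 Sox genes. Among the 39 genes above background in both genotypes it was 5 (12.8%), and the share of all genes under that filter was not taken. No Sox gene passed under any of the 11 other settings tried with limma.

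The log2 ratios of Gata6cKO over control of the tested Fox and Sox genes ran from -0.43 to 0.43, with a median of 0.01 beside 0.00 over all genes. The median size without its sign was 0.08, beside 0.07 over all genes. None of the 45 exceeded 0.5 in either direction, which 723 genes (3.65%) did. That depends on the processing. The processed signals of the scanner software gave 1.32 for Foxa2, -0.64 for Foxj1 and -0.55 for Foxi1, and the deposited series values 0.82, -0.65 and -0.57. Both differ from the main fit in more than the background correction, and which step made the difference was not tested. The 95% confidence interval of the log2 ratio lay within 1 of 0 for all 45 and for 19505 of the 19801 genes. For a gene at background in 1 genotype, Foxa2 among them, the interval is that of the measured ratio only and sets no upper limit on its change. The male and female arrays gave the same sign for 22 of 45 genes (48.9%), beside 48.8% of all genes. The levels of the 2 genotypes did not overlap across the 4 RNAs for 15 of 45 genes, beside 33.4% of all genes.

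**Figure D1:**
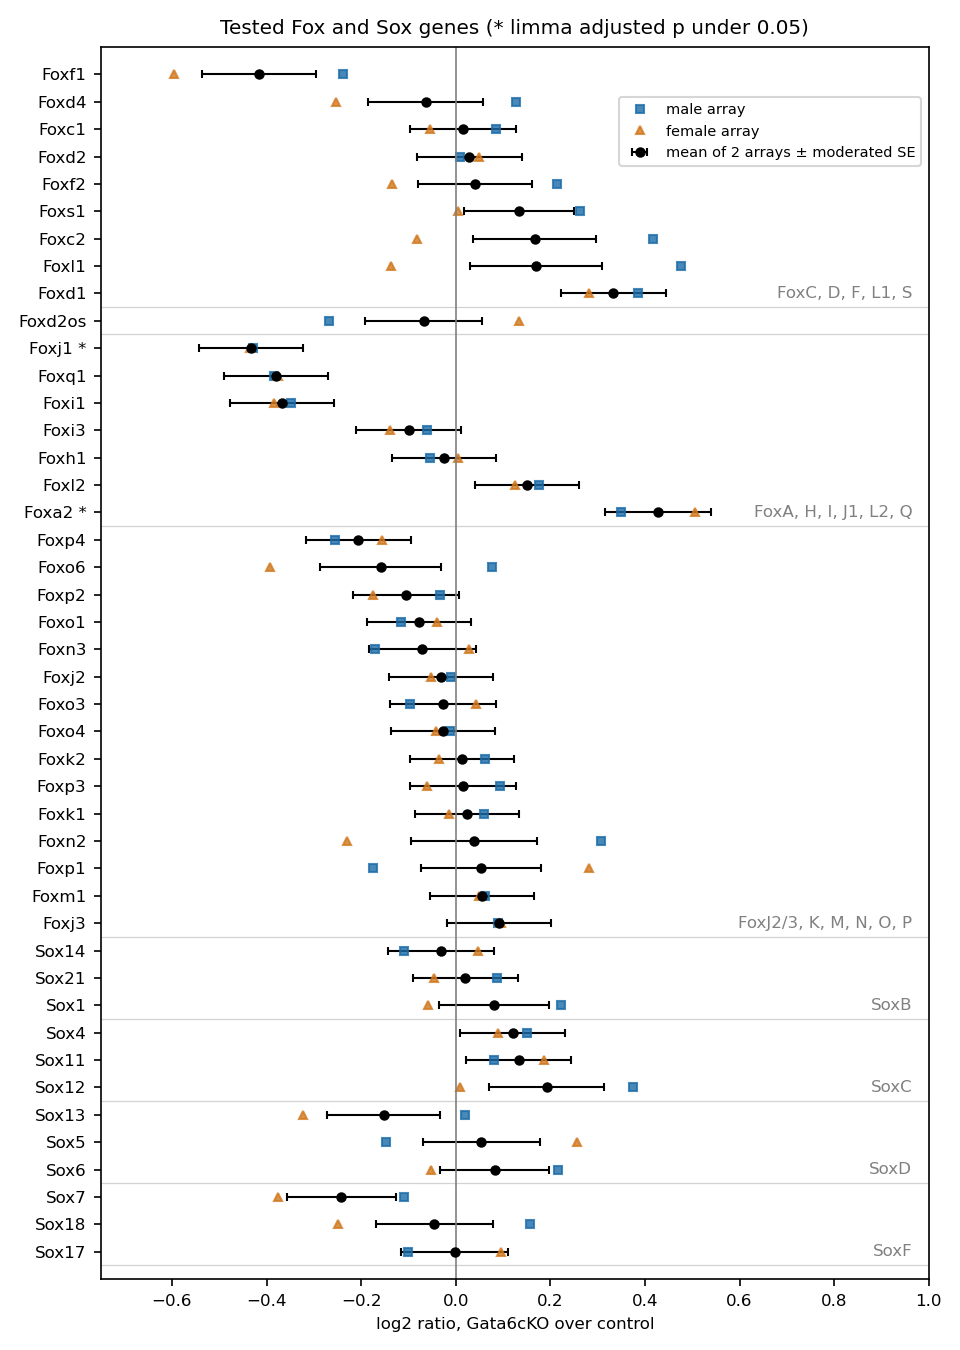
Log2 ratio of Gata6cKO over control (x axis) for 44 of the 45 tested genes, ordered within subfamily groups. Squares are the male array, triangles the female array, black points the mean of both with the moderated standard error, and asterisks mark limma adjusted p under 0.05. Foxj1 at -0.43 and Foxa2 at 0.43 are the outermost means and the only genes with an asterisk.

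The 60-base probes of the genes called, and of 2 genes whose readings rest on probes of low sequence variety, begin as follows. The first 30 bases are shown in the probe's own direction, 5′ to 3′. Capitals are not used, since no stretch was singled out.
Foxj1: ggagagactaatatagtgaatgtagttata
Foxa2: cgggtctgatttaatttatggtttctgcgt
Sox5: ggaggaggaggaagaggaggaggaggaaga
Foxl2: ttcgcctggggggccctcctgccgcaccac
The Foxj1 probe held 35 distinct triplets among its 58 triplet positions and the Foxa2 probe held 28, where the median probe of the array held 36. The Sox5 probe held 7, a number at or below which only 0.0735% of array probes lie, and consisted of purines throughout (100%). The Foxl2 probe held 19 and had a GC content of 81.7%.

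A mixed group of forkhead genes, with FoxA, FoxH, FoxI, Foxj1, Foxl2 and FoxQ, held both calls. Of 8 tested, 1 fell, 1 rose and 6 did not pass (25% passed, beside 4.55% of all genes). On the male and female arrays 7 of 8 had the same sign (87.5%, beside 48.8% of all genes). This group was put together by role with earlier results of these data known, so its share carries no test.

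Foxj1 encodes the master regulator of motile cilia. Its normalised log2 intensity was 8.12 in the male and 8.01 in the female control RNA, and 7.69 and 7.57 in the matching Gata6cKO RNAs. Both Gata6cKO values lay below both control values. Foxj1 fell by 0.43 on the log2 scale on each array, a mean log2 ratio of -0.43 ± 0.11 (moderated SE, n = 2 arrays) or 1.35-fold (limma adjusted p = 0.0406). All 4 spots were well above background in each of the 4 RNAs. The probe lies on chromosome 11, from 116192214 to 116192273 (mm9). The call ended with median centring of the arrays (adjusted p = 1), without the filter on dim probes (adjusted p = 0.0773), in the fit of separate channels with the array as a block (adjusted p = 0.0909), and with 6 in place of the estimated 11.9 prior degrees of freedom (adjusted p = 0.0951). That prior, which sets how far genes share 1 estimate of their spread, is known only loosely with 1 residual degree of freedom; with 24, called the high prior below, the adjusted p was 0.0195.

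Genes of motile cilia, for the most part known Foxj1 targets, were read beside it, and the list also holds the regulator Mcidas. Of 18 listed, 12 were tested, 0 fell, 1 rose and 11 did not pass, and their median log2 ratio was 0.03. Dnah9, an axonemal dynein heavy chain, rose by 0.64 on the male array and 0.70 on the female, with a mean of 0.67 ± 0.11 (limma adjusted p = 0.00249, n = 2 arrays). Tekt1, a tektin of ciliary microtubules, read 0.26 ± 0.11 and did not pass (limma adjusted p = 0.36). The dynein genes Dnah5, Dnah11, Dnai1 and Dnai2, and Spag6l and Cfap43, were not well above background and were not tested.

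Foxa2 encodes a pioneer factor of endoderm, floor plate and node. Its log2 intensity was 6.99 in the male and 7.01 in the female Gata6cKO RNA, against 6.64 and 6.50 in the controls. Both Gata6cKO values lay above both control values, and the log2 ratio was 0.35 on the male array and 0.51 on the female. Foxa2 rose by 0.43 ± 0.11 (moderated SE, n = 2 arrays; limma adjusted p = 0.0481). In the controls 0 of 4 spots were well above background on either array, against 4 of 4 in both Gata6cKO RNAs. The size of the change is therefore not known. With the lowest signal of probes above background on each array taken for the controls, Foxa2 was 1.19-fold higher. That is a point value without an interval, and it sets no lower limit. The confidence interval of the measured log2 ratio ran from 0.19 to 0.67. The probe lies on chromosome 2, from 147868669 to 147868728 (mm9). Foxa2 thus passed the filter only through the genotype in which it was high, and the stricter filter left it out. The log2 ratio was 1.32 from the scanner software's processed signals and 0.82 from the deposited series values. It lost its call with median centring (adjusted p = 1), without the filter (adjusted p = 0.102), in the fit of separate channels (adjusted p = 0.0849) and with 6 prior degrees of freedom, the low prior (adjusted p = 0.114). A second Foxa2 probe was above background in no RNA.

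Foxq1, a forkhead gene of epithelia, read 12.48 and 12.43 in the male and female Gata6cKO RNAs against 12.86 and 12.81 in the controls. The genotypes did not overlap, and the ratio was -0.38 on both arrays. With a mean of -0.38 ± 0.11 (n = 2 arrays) it did not pass (limma adjusted p = 0.0778), and of the other settings 1 brought it past the threshold, the high prior (adjusted p = 0.049). Foxi1, known from the intercalated cells of the kidney and from the inner ear, read 7.56 and 7.53 against 7.91 and 7.91. Its mean of -0.37 ± 0.11 missed the threshold (limma adjusted p = 0.0941), while the processed signals gave -0.55 (adjusted p = 0.0155), the deposited values -0.57 (adjusted p = 0.0027) and an intensity trend in the prior an adjusted p of 0.0158.

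Foxi3, Foxh1 and Foxl2 read -0.10, -0.03 and 0.15, with limma adjusted p-values between 0.931 and 1. The Foxl2 reading came from the GC-rich probe shown above. A second probe of the gene gave -0.20 on the male array and 0.08 on the female. That second probe had 0 of 4 spots well above background in the male Gata6cKO RNA.

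**Figure D2:**
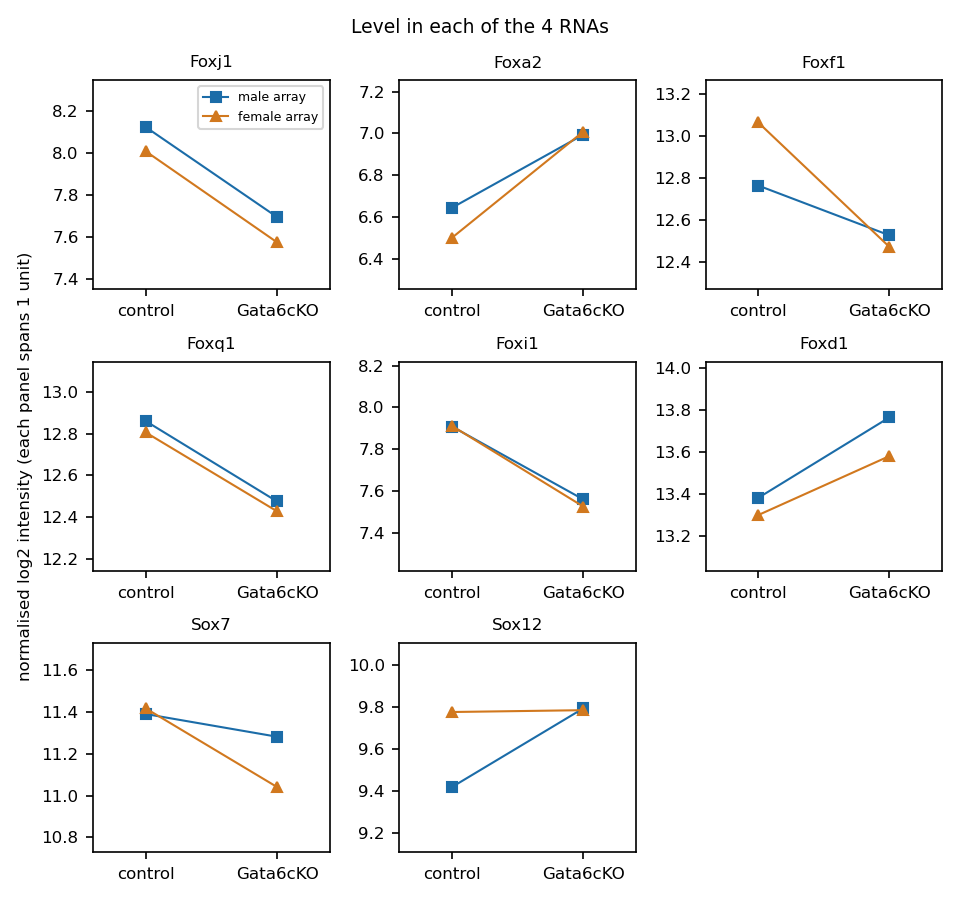
Normalised log2 intensity (y axis, 1 unit per panel) of 8 genes in the control and Gata6cKO RNA of the male array (squares) and female array (triangles), with lines joining the RNAs of 1 array. Foxj1, Foxq1 and Foxi1 have nearly parallel lines that slope down and Foxd1 ones that slope up, Foxa2 is higher in Gata6cKO on both arrays, and the slopes of Foxf1, Sox7 and Sox12 differ between the arrays.

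Beside this group, 12 of 24 urothelial markers fell and 0 rose, with a median log2 ratio of -0.45. Their summed intensity was 250600 and 234200 in the Gata6cKO RNAs and 320600 and 301600 in the controls. In the list of neuronal and glial markers, 15 of 26 rose and 1 fell, with a median of 0.69 and sums of 158400 and 162100 against 137000 and 127000. Of 15 skeletal muscle markers 6 rose and 0 fell, of 13 red blood cell markers 4 fell and 0 rose, and of 10 mesothelial markers 3 fell and 3 rose. The part of these cell types in the Foxj1 and Foxa2 values was not tested.

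The mesenchymal forkhead genes, FoxC, FoxD, FoxF, Foxl1 and Foxs1, had 9 tested members. None passed (limma adjusted p from 0.0786 to 1), and 2 of the 9 had an unadjusted p under 0.05 (22.2%, beside 11.4% of all genes). The male array gave a higher ratio than the female array for 8 of 9, with group medians of 0.21 and -0.08. Over all tested Fox and Sox genes this was so for 30 of 45, and over all genes for 9380 of 19801.

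Foxf1, needed for mesenchyme around endodermal tubes, read 12.53 and 12.47 in the male and female Gata6cKO RNAs against 12.76 and 13.06 in the controls. The genotypes did not overlap, but the ratio was -0.24 on the male array and -0.59 on the female. Its mean of -0.42 ± 0.12 (moderated SE, n = 2 arrays) did not pass (limma adjusted p = 0.0786). An intensity trend in the prior (adjusted p = 0.0443) and the high prior (adjusted p = 0.0362) brought it past the threshold, and its other settings gave adjusted p-values between 0.0573 and 1. A second, dimmer Foxf1 probe read -0.02 and -0.20. That probe did not pass the filter, with 1 of 4 spots well above background in each male RNA. Foxf2, the paralog, read 6.94 and 6.93 against 6.73 and 7.07, with overlapping genotypes and a mean of 0.04 ± 0.12 (limma adjusted p = 1).

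Foxd1, the kidney stroma gene, read 13.76 and 13.58 in the Gata6cKO RNAs against 13.38 and 13.30 in the controls. The genotypes did not overlap. At 0.33 ± 0.11 (n = 2 arrays) Foxd1 did not pass (limma adjusted p = 0.146), nor did it under any other setting. Of 14 tested markers of nephron and stroma, 4 rose and 0 fell, with a median log2 ratio of 0.32 on the male array and 0.00 on the female. Their summed intensity was 118300 and 106100 in the Gata6cKO RNAs against 93410 and 113500 in the controls, so the genotypes overlapped in this sum. The 4 that rose were the nephron genes Cited1, Lhx1, Wt1 and Lrp2, and Wt1 is also a listed mesothelial marker. The stromal genes Meis1, Pdgfrb and Ren1 read -0.02, -0.36 and 0.02 and did not pass. The part of nephron and stroma cells in the Foxd1 value was not tested.

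Foxc1 and Foxd2 gave nearly the same readings in both genotypes. Foxc1 read 12.48 and 12.43 against 12.39 and 12.49, a mean of 0.01 ± 0.11. Foxd2 read 13.05 and 13.20 against 13.04 and 13.15, a mean of 0.03 ± 0.11, and its opposite-strand neighbour Foxd2os had a mean of -0.07 ± 0.12. Limma gave each an adjusted p of 1. Foxs1 had a mean of 0.13 and Foxd4 of -0.06, and neither passed.

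Several of these genes are neighbours in the genome. On chromosome 8 (mm9), the Foxf1 probe starts at 123611944, the Foxc2 probe at 123642693 and the Foxl1 probe at 123654402. Foxc2, a gene of lymphatic and mesenchymal development, read 14.25 and 14.20 in the Gata6cKO RNAs against 13.84 and 14.28, and its ratio was 0.42 on the male array and -0.08 on the female. Foxl1 read 12.46 and 12.30 against 11.98 and 12.44, with ratios of 0.48 and -0.14. All 3 neighbours had the higher ratio on the male array, by 0.36 for Foxf1, 0.50 for Foxc2 and 0.61 for Foxl1. With 1 array for each sex, this difference has no test. Neither Foxc2 (0.17 ± 0.13, limma adjusted p = 0.98) nor Foxl1 (0.17 ± 0.14, limma adjusted p = 1) passed. On chromosome 13, the Foxq1 probe starts at 31652206, that of Foxf2 at 31723139 and that of Foxc1 at 31902423, and there the ratio of Foxq1 stood below those of its neighbours.

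**Figure D3:**
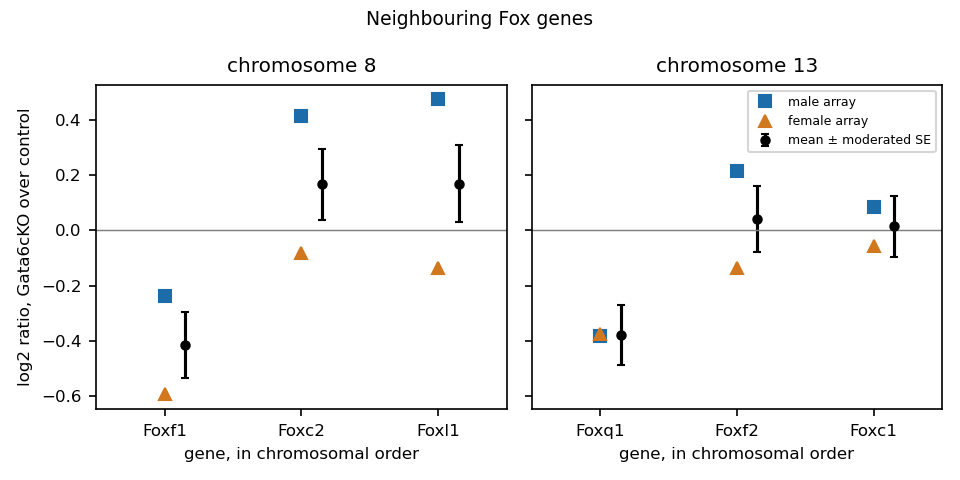
Log2 ratio of Gata6cKO over control (y axis) of neighbouring Fox genes in chromosomal order on chromosome 8 and chromosome 13. Squares are the male array, triangles the female array, and black points the mean with the moderated standard error. On chromosome 8 the squares of all 3 genes lie above their triangles, and Foxf1 alone is below 0 on both arrays.

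Since FoxF and Foxl1 are known Hedgehog targets, the pathway was read beside them. Of 17 tested Hedgehog genes, 1 fell, 2 rose and 14 did not pass, with a median of 0.11. Ihh, a ligand made by epithelium, fell by 1.55 on the male array and by 1.13 on the female, a mean of -1.34 ± 0.12 (n = 2 arrays; limma adjusted p = 3.05e-05). Dhh, a ligand of Schwann cells among others, rose by 0.79 ± 0.11 (limma adjusted p = 0.00067), and the co-receptor Cdon rose by 0.47 ± 0.11 (limma adjusted p = 0.026). The ligand Shh read 0.06. The targets Ptch1 and Gli1 read -0.24 (limma adjusted p = 0.498) and 0.13 (adjusted p = 1) and did not pass. Of 16 smooth muscle markers, 4 fell and 2 rose.

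The forkhead genes FoxJ2, FoxJ3, FoxK, FoxM, FoxN, FoxO and FoxP had 15 tested members, of which 0 passed and 0 had an unadjusted p under 0.05 with limma. Their log2 ratios ran from -0.21 to 0.09, the narrowest range of the forkhead groups, with a median of -0.03. Foxp4 lay lowest. It read 14.05 and 14.28 in the Gata6cKO RNAs against 14.30 and 14.44 in the controls, without overlap (limma adjusted p = 0.616). All 3 of its kept probes had negative means (-0.21 to -0.16), but the brightest and the next share much of their sequence. The dimmest read 0.04 on the male array and -0.36 on the female. Foxm1, a regulator of mitotic genes, read 11.01 and 11.12 against 10.95 and 11.07, a mean of 0.06 ± 0.11 (limma adjusted p = 1). Its 18 listed mitotic targets gave 0 calls and 0 unadjusted p-values under 0.05 with limma, and ran from -0.05 to 0.23 with a median of 0.10.

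FoxO factors are held out of the nucleus by insulin and AKT signals and switch on growth arrest and metabolic genes. Foxo1 read 13.06 and 13.31 in the Gata6cKO RNAs against 13.18 and 13.35, with overlap, a mean of -0.08 ± 0.11. Foxo3 had a mean of -0.03 ± 0.11, and both had an adjusted p of 1 with limma. Of 25 tested genes of this axis, 1 fell, 2 rose and 22 did not pass, with a median of 0.03. Cdkn1a, the cell cycle inhibitor p21, rose by 0.63 ± 0.11 (limma adjusted p = 0.00381). Pik3r1, a regulatory subunit of PI3 kinase, rose by 0.62 ± 0.11 (limma adjusted p = 0.0049), and Pdk4, a brake on pyruvate oxidation, fell, with a log2 ratio of -0.52 ± 0.11 (limma adjusted p = 0.0133).

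Foxp1, a repressor with splice forms, was read by 4 kept probes whose mean log2 ratios ran from -0.03 to 0.35, the widest span among the 13 genes with several kept probes. The brightest gave -0.17 on the male array and 0.28 on the female, a mean of 0.05 ± 0.13 (limma adjusted p = 1). The highest probe read 0.40 and 0.30, positive on both arrays. The single value of Foxp1 therefore depends on the probe chosen.

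**Figure D4:**
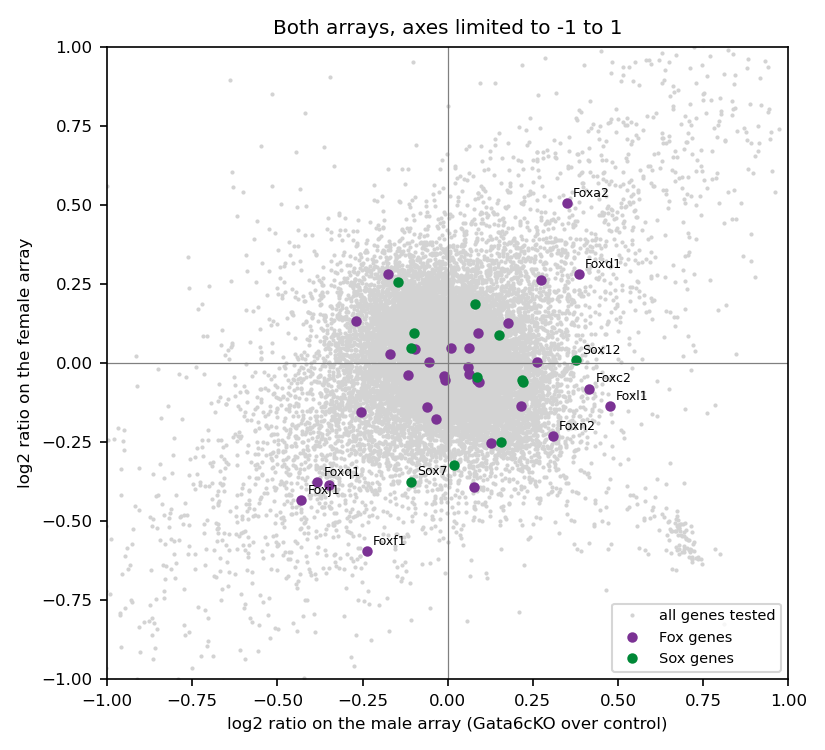
Log2 ratio of Gata6cKO over control on the male array (x axis) against the female array (y axis) for all 19801 genes tested (grey), with Fox genes in purple and Sox genes in green, both axes limited to -1 to 1, so that genes beyond are not drawn. Foxa2 and Foxd1 lie high on both arrays, Foxj1, Foxq1 and Foxf1 low on both, and Foxc2, Foxl1 and Foxn2 are high on the male array only.

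All 12 tested Sox genes stayed from -0.24 to 0.19. The SoxC genes Sox4, Sox11 and Sox12 were positive on both arrays without passing. Sox4 read 14.71 and 14.76 in the Gata6cKO RNAs against 14.56 and 14.67 in the controls, and Sox11 read 12.83 and 12.77 against 12.75 and 12.58. For both genes the genotypes did not overlap, though the gap was small. Sox12 read 9.793 and 9.784 against 9.417 and 9.775, also without overlap and with a small gap. Its ratio was 0.38 on the male array and 0.01 on the female array. The means were 0.12 ± 0.11, 0.13 ± 0.11 and 0.19 ± 0.12, with limma adjusted p-values of 1, 1 and 0.788. Kept probes of Sox4 ran from 0.11 to 0.35. The median of the neuron and glia markers, which rose in 15 of 26 cases on these arrays, was 0.69; their part in the SoxC readings was not tested.

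The SoxF genes Sox7, Sox17 and Sox18 are known from endothelium. Sox7 read 11.28 and 11.04 in the Gata6cKO RNAs against 11.39 and 11.42, without overlap. Its ratio was -0.11 on the male array and -0.38 on the female, a mean of -0.24 ± 0.12 that did not pass (limma adjusted p = 0.483). Sox17 read 10.69 and 10.71 against 10.79 and 10.62, a mean of -0.00 ± 0.11, and Sox18 had 0.16 on the male array and -0.25 on the female. Of 17 endothelial markers, 1 fell, 0 rose and the median was -0.05; Tek, an angiopoietin receptor, fell by 0.43 on the male array and by 0.67 on the female (limma adjusted p = 0.0122). Their summed intensity was 111800 and 114000 in the Gata6cKO RNAs and 118200 and 112300 in the controls, with overlap.

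The SoxD genes, known from cartilage and glia, showed no shared direction. Sox13 read 10.715 and 10.701 in the Gata6cKO RNAs against 10.696 and 11.024, with overlap, a mean of -0.15 ± 0.12 (limma adjusted p = 0.987). Sox6 had 0.22 on the male array and -0.05 on the female. Sox5 gave -0.15 and 0.26 through the all-purine probe printed above, whose file coordinates span 27 bases rather than 60. A second Sox5 probe read -0.15 on both arrays. It was kept only through the controls, with 0 of 4 spots well above background in the male and 1 of 4 in the female Gata6cKO RNA. The sign of Sox5 thus depends on the probe, and the mean of both probes was negative. The SoxB genes Sox1, Sox14 and Sox21 had means from -0.03 to 0.08, with opposite signs on the arrays in 3 of 3.

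Sox and Fox proteins act with partners such as TCF/LEF factors, POU factors and Groucho/TLE co-repressors. Of 25 listed partner genes, 21 were tested, 1 fell, 0 rose and 20 did not pass, with a median of -0.07. Lef1, a nuclear effector of WNT signals, fell by 0.41 on the male array and by 0.75 on the female, a mean of -0.58 ± 0.12 (n = 2 arrays; limma adjusted p = 0.0113).

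The remaining 16 genes were not well above background in either genotype on both arrays and were not tested. They were 11 Fox genes (Foxa3, Foxb1, Foxb2, Foxe1, Foxe3, Foxi2, Foxl2os, Foxn1, Foxn4, Foxr1 and Foxr2) and 5 Sox genes (Sox2, Sox3, Sox8, Sox15 and Sox30). In 9 of them 0 spots were well above background in any RNA. Sox2, a factor of pluripotent and neural cells, had 1 of 4 spots above background in the female Gata6cKO and 1 in the male control RNA. Sox8, a SoxE gene of glia, had 1 of 4 in each Gata6cKO RNA and 0 of 4 in each control.

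Because a GATA factor was deleted, the 250 bases before the start of each gene were searched for the GATA words AGATAA or TGATAA or AGATAG or TGATAG on both strands, in RefSeq sequences of assembly GRCm38.p6. Promoters were held for 40 of the 61 genes, and not for Foxj1, Foxf1 or Foxq1, among others. A match was found in 6 of 50 such promoters (12.0%), beside 26.5% of all 32851 promoters in the table. The genes with a match were Foxa2, Foxp3, Sox6, Sox11 and Sox14. Of 3 Foxa2 start sites, 1 had a match, and it is shown because Foxa2 was the member that rose. The window lies on the minus strand of chromosome 2, from 148045465 to 148045714 (GRCm38.p6), with the word in capitals 177 bases before the start.
Foxa2: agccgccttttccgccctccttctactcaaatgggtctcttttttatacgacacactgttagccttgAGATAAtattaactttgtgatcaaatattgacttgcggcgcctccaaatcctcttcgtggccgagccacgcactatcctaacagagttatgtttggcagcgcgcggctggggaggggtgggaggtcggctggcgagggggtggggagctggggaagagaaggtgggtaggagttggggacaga
Such a match is a description of the letters and does not show binding.

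**Figure D5:**
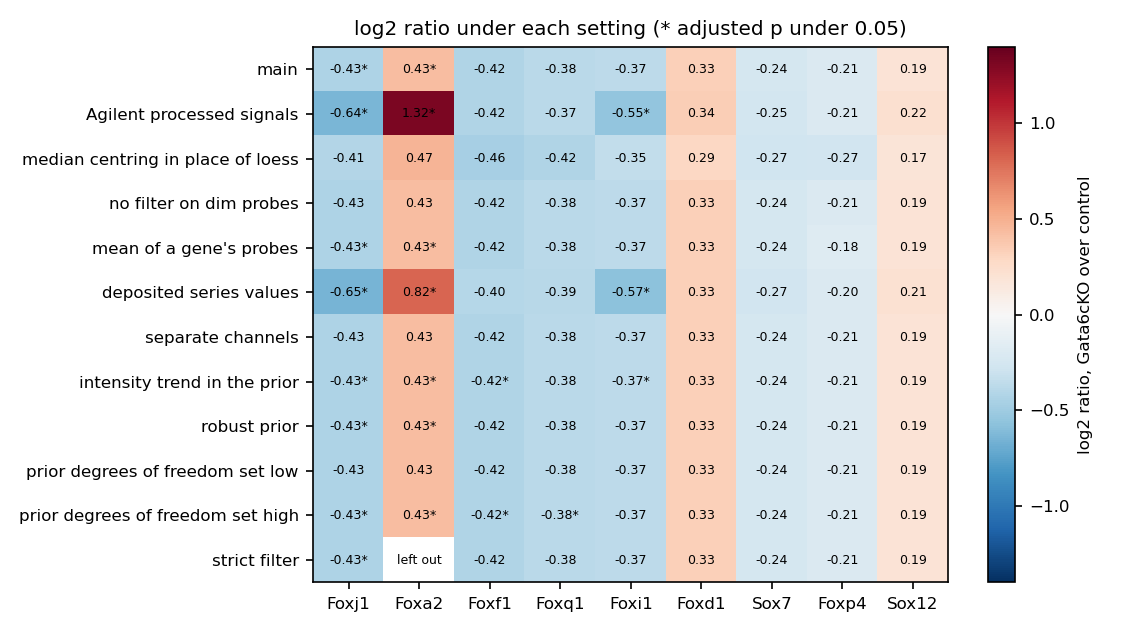
Log2 ratio of Gata6cKO over control (colour and printed value) of 9 genes (columns) under the main and 11 other settings (rows), with asterisks at adjusted p under 0.05. The signs of all 9 genes are the same in every row that holds them (the strict filter leaves out Foxa2), the dim gene Foxa2 varies most, and no gene has an asterisk with median centring, without the filter on dim probes, with separate channels or with the low prior.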

How the data were processed

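Per the file headers, the deposited scanner files hold uncorrected mean spot intensity and local background medians of both dyes, and probe coordinates on mm9. The authors' processed intensity, and the log10 ratio of red over green made from it, came from Agilent Feature Extraction 10.7.3.1, per the submitters' processing notes. The deposited series values are a score that reads as a linear fold with a sign, Gata6cKO over control.

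Fits used limma 3.58.1 and statmod 1.5.0 in R 4.3.3. Normexp with an offset of 50 corrected the background and loess the ratios, leaving control and outlier spots at weight 0. The sign was turned on the dye-swapped array and the 4 spots of a probe were averaged. A probe was kept with at least 3 of 4 spots well above background in 1 genotype on both arrays (26200 of 39429). The brightest kept probe stood for a gene. P-values came from lmFit and eBayes (1 residual and 11.9 prior degrees of freedom) and were adjusted by Benjamini-Hochberg over 19801 genes. Levels of single RNAs are log2 intensities after loess and Aquantile scaling between arrays. The number of arrays, 2, limits the precision. Fits were tested on simulated data. Given the prior degrees of freedom with which the data were simulated, the test kept its error rate. That number is not known for these arrays, so this does not show that their calls keep it. Estimates of the number varied widely between draws and were mostly too high, with more false calls. Fits with 6 and with 24 were therefore added after seeing the data.

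Named genes were those that passed, the 10 largest log2 ratios, a set of subfamily members, untested members with their state, and up to 4 passing genes of each list read beside them. The members, groups and lists were chosen with earlier results of these data known. There were 0 unused per-sample columns. Values of 1 tested gene are not reported here, though it is in the counts.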

Additional observations from a re-analysis of the deposited data

Results flagged for a closer look

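Foxn2, a forkhead gene of the FoxN group, had opposite signs on the arrays, with a log2 ratio of Gata6cKO over control of 0.31 on the male array and -0.23 on the female. The difference was not tested, since each sex has 1 array, and sex, dye orientation and array cannot be told apart.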

How the results depend on the processing

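Among 489 values of single Fox and Sox genes under the alternatives that use both arrays, 459 kept their direction and side of the threshold, 9 newly passed, 8 no longer passed and 13 changed sign. These sign changes were as follows. With median centring in place of loess, Foxc1 was -0.029, Foxd2 -0.021, Foxh1 0.014, Foxk1 -0.013, Foxk2 -0.033, Foxo3 0.0079, Sox14 0.0037 and Sox5 -0.011. With the mean of a gene's probes, Foxp2 was 0.020, Sox17 0 and Sox5 -0.049. With the deposited series values, Foxo4 was 0.011 and Foxp3 -0.013.

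The count of Fox and Sox genes that fell was 1 and of those that rose 1. Processed signals gave 2 and 2, the deposited values 2 and 2, and an intensity trend in the prior 3 and 2. With the prior degrees of freedom set to 6, an alternative added after seeing the data, they were 0 and 0, and with 24 they were 3 and 1. Median centring, no filter on dim probes and separate channels with the array as replicate block each gave 0 and 0. The strict filter gave 1 and 0. Over all genes, median centring gave 100 that fell and 90 that rose, no filter 229 and 248, separate channels 269 and 278, the low prior 254 and 274, and the deposited values 795 and 672. In no setting did the median of all genes move by over 0.1. The median of the tested Fox and Sox genes ran from -0.04 without replicate 1 to 0.06 without replicate 2. Leaving out an array leaves 1 array with no residual degree of freedom, so these are values with no test. It turned the sign of 23 of the 45 single genes, those with opposite signs on the arrays, with a size of up to 0.23 (Foxn2, -0.23 without replicate 1); none of them had passed. Dim genes, Foxa2 among them, are limited by signal over background. The cause of the changed calls was not tested. No paired analysis was possible beyond the ratio within each array, because each array already pairs 1 Gata6cKO with 1 control RNA.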
